A study of Mus musculus with 90 samples.

Results

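Foxp3, Ikzf2, Il2ra and Il10, a set of genes used to follow regulatory T cells, were examined in a mouse melanoma treated with an antibody against PD-L1. The members were the genes of this set with a probe set on the array. All 4 genes were measured, through 7 of the 34945 probe sets that carry 1 gene symbol, among 18193 genes in all. They were described across 7 treatment groups and, as the set was defined, also relative to Cd3g, which encodes the gamma chain of CD3 on T cells, on the same array.

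Expression was measured on 90 Affymetrix mouse arrays, each of RNA from a subcutaneous melanoma allograft. For every group, controls included, the labels give the genotype Hgftg;Cdk4R24C/R24C (transgenic Hgf and homozygous mutant Cdk4) and B6.cBrd as strain. There were 6 Relapse, 3 Stabilization, 27 Responder, 23 NonResponder and 2 GrowthDelay arrays, all from tumours given anti-mouse PD-L1 mIgG1 D265A at 10 mg/kg, 22 control IgG arrays labelled as given normal IgG at 10 mg/kg, which the series design describes as mouse IgG1 D265A, and 7 PBS arrays given 10 ml/kg of the vehicle. The series design adds that antibody was given at 10 or 20 mg/kg, 2 times a week. Responder tumours had shrunk by 5% or more and were harvested once 2 to 12 doses had been given. NonResponder tumours kept growing and were harvested at matched times. Relapse tumours had shrunk below measurable size and grew back after 4 to 10 doses. Stabilization tumours belonged to the responding ones but kept their volume between 2 measurements in a row, and GrowthDelay tumours appeared only after treatment. The groups were thus defined by how the tumour behaved, and neither the mouse of each array nor the age of the mice is given. P-values therefore measure the spread between these samples, some of which may be technical repeats.

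Regulatory T cells are CD4 T cells that restrain other immune cells. Foxp3 encodes the transcription factor that defines their lineage, and Ikzf2 encodes Helios, an Ikaros-family factor found in many of them. Il2ra encodes CD25, the chain that gives the IL-2 receptor its high affinity, and it is also switched on in other activated T cells. Il10 encodes an inhibitory cytokine that regulatory T cells make, as do macrophages and other myeloid cells. In tumours such cells are studied as a brake on the T cells that PD-L1 blockade is meant to release.

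Titles of the samples are numbers that fall into 4 separate ranges, here called title series. The larger series (53 arrays) and the smaller series (25 arrays) both held Relapse, Responder and NonResponder tumours. Another 8 control IgG arrays and 4 PBS arrays formed series of their own, all Stabilization arrays lay in the smaller series, and all GrowthDelay arrays in the larger one. What the ranges stand for is not given, so each difference between groups was fitted with the series as a term. The main differences of the members are also given inside a series. A series of a single group adds nothing to a difference fitted this way. The 8 control IgG and 4 PBS arrays in series of their own therefore enter only the estimate of spread. The arrays carry no read depth, and their number limits the precision. The labels number no replicates, so the replicate numbers used here only name arrays, in order of deposit. Median signal per array lay between log2 5.71 and 5.90, and no pair of arrays held identical values. The lymph node markers (Cxcl13, Madcam1, Glycam1 and Ltb) averaged more than 1 log2 unit above the median array on 3 arrays, Relapse replicate 6, Responder replicate 20 and NonResponder replicate 14. On 6 arrays the mean correlation with all other arrays lay more than 3 interquartile ranges under the lower quartile, namely Stabilization replicate 1, Responder replicates 4, 20 and 21, NonResponder replicate 14 and PBS replicate 5. Several results of the members are also given without these arrays. The member differences of Relapse tumours, the differences relative to Cd3g and the results of the gene lists are given with them.

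Ikzf2 and Il10 were higher in responding tumours, and the signals of Foxp3 and Il2ra did not pass the test in any comparison. In Responder against NonResponder tumours Ikzf2 was 1.42-fold and Il10 1.34-fold higher, while Cd3g was 3.99-fold higher. In an F test over all groups (limma, adjusted over 18193 genes), Ikzf2 (adjusted p = 0.000175) and Il10 (adjusted p = 0.0427) passed and Foxp3 (adjusted p = 0.784) and Il2ra (adjusted p = 0.883) did not. Of all genes, 45.9% passed that F test, so 2 of 4 members is close to the background share.

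**Figure D1:**
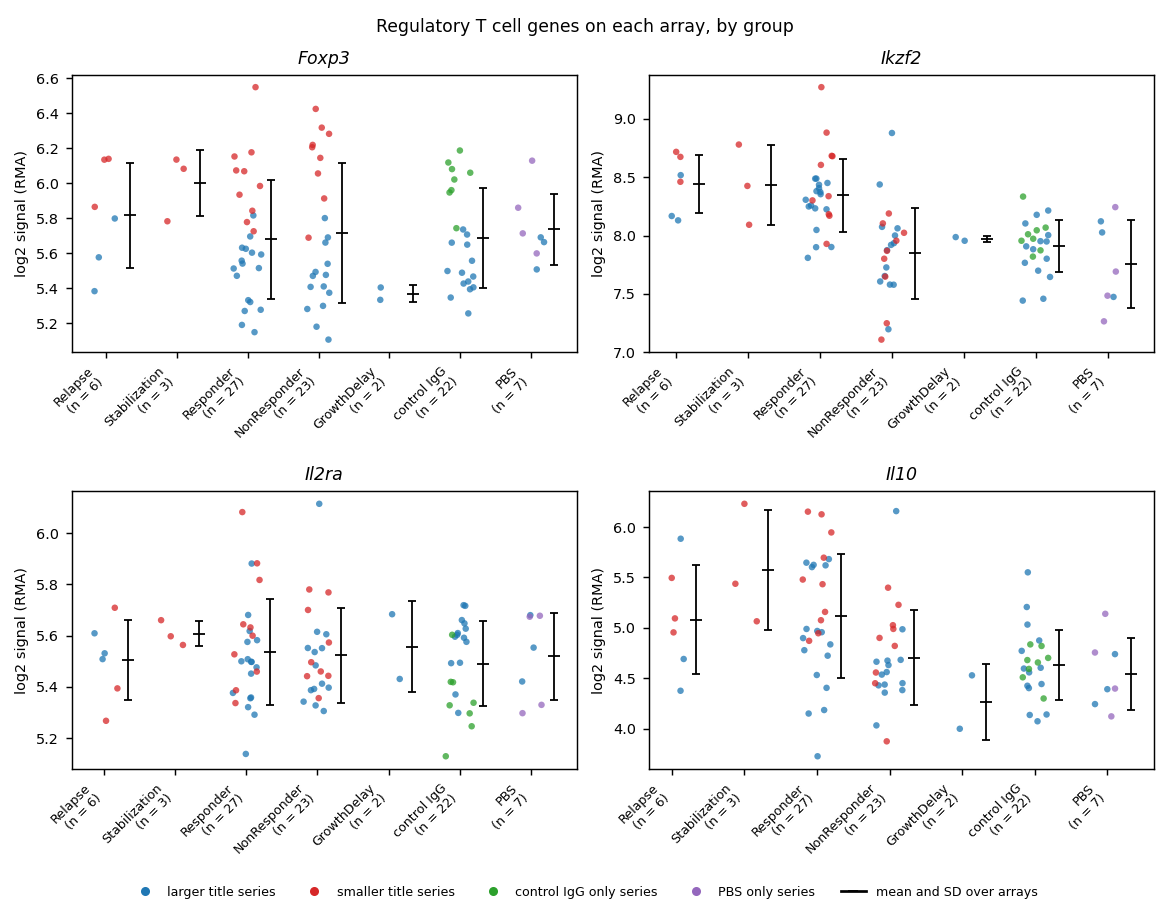
Log2 signal of Foxp3, Ikzf2, Il2ra and Il10 on each of the 90 arrays, with groups on the horizontal axis, points coloured by title series, and the mean and SD over arrays in black. Ikzf2 sits higher in Relapse, Stabilization and Responder tumours than in the others, and Foxp3 separates by title series within the groups.

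Foxp3 was read by a single probe set, 1420765_a_at. Its log2 signal in Responder tumours ran from a lowest value of 5.15 through a median of 5.63 to a highest value of 6.55. In NonResponder tumours the lowest, median and highest values were 5.11, 5.66 and 6.43, and in control IgG tumours they were 5.26, 5.66 and 6.19. The 3 groups overlapped almost entirely: 12 of 27 Responder arrays lay above the NonResponder median. Inside the title series the counts were 11 of 17 in the larger and 1 of 10 in the smaller one. In bulk samples such as these, fewer cells of a type and less RNA per cell cannot be told apart. The mean Foxp3 signal, log2 5.71, lay under that of the median gene (log2 7.01). Whether its probe set reads the transcript at this level was not tested, so the overlap may not reflect the transcript.

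The difference for Foxp3 between Responder and NonResponder tumours was -0.02 ± 0.05 (log2, SE; limma adjusted p = 0.752). Its 95% interval, -0.13 to 0.09, corresponds to between 0.915-fold and 1.06-fold. Inside the larger series the difference was 0.03 and inside the smaller series -0.11. Against control IgG, Responder tumours differed by -0.04 ± 0.07 (adjusted p = 0.603). In the same arrays Cd3g was 2.00 ± 0.33 higher in Responder than in NonResponder tumours (adjusted p = 5.17e-05).

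The title series differed in Foxp3 by more than any 2 groups compared. Its mean was 6.07 ± 0.22 in the smaller series (SD, n = 25) and 5.49 ± 0.17 in the larger one (SD, n = 53), a gap of 0.58. Both responding and non-responding tumours showed it: Responder arrays averaged 6.03 in the smaller and 5.48 in the larger series, and NonResponder arrays 6.14 and 5.44. The series is a term in every fit, and its source is not known. Over all 90 arrays Foxp3 spanned 1.44 log2 units, against 6.70 for Cd3g. The 3 arrays with high lymph node markers lay inside the range of the others for Foxp3. Relapse replicate 6 had 6.14, Responder replicate 20 had 6.15 and NonResponder replicate 14 had 5.49, although the last of these held the highest Cd3g signal of all arrays, 10.95.

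Ikzf2 gave the clearest group difference of the 4 genes. Its log2 signal in Responder tumours had a lowest value of 7.81, a median of 8.34 and a highest value of 9.27. In NonResponder tumours these values were 7.11, 7.87 and 8.88. The ranges overlapped, but 26 of 27 Responder arrays lay above the NonResponder median, and the highest NonResponder value belonged to replicate 14, an array with high lymph node markers.

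Ikzf2 was 0.50 ± 0.09 higher in Responder than in NonResponder tumours (log2, SE; limma adjusted p = 9.47e-05), or 1.42-fold with a 95% interval of 1.25 to 1.60. Without the 3 arrays with high lymph node markers the difference was 0.52, and without the 6 arrays of low correlation it was 0.49. Over all genes, 47% passed this test, 17.2% higher and 29.8% lower. Ikzf2 and Il10 made 2 of 4 members higher, with a median difference over the members of 0.22, against -0.06 over all genes.

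Inside the title series the size of the Ikzf2 difference varied. It was 0.36 ± 0.11 in the larger series, where limma gave an adjusted p of 0.0548 (0.0451 with the larger series fitted alone), and 0.73 ± 0.14 in the smaller series (adjusted p = 0.000621). In the smaller series 7 of 10 Responder arrays lay above every NonResponder array, and in the larger series 0 of 17 did. Without the 3 arrays with high lymph node markers, a count added after seeing the data, 6 of 9 did in the smaller and 3 of 17 in the larger series. The share of all genes called was 2.63% inside the larger series and 36.7% inside the smaller one. The interaction of the difference with the series was tested in limma and called 0 of 18193 genes (0%), with 2418 genes at an unadjusted p under 0.05. For Ikzf2 the larger minus smaller contrast was -0.37 ± 0.18 (adjusted p = 0.359).

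The 3 probe sets of Ikzf2 did not behave alike. The brightest, 1437542_at, gave the values above, and 1456956_at followed it over the 90 arrays (Pearson r = 0.85) and differed by 0.47 ± 0.12 between Responder and NonResponder tumours (limma adjusted p = 0.00253 over all probe sets). The third, 1421643_at, the dimmest on average, did not follow the brightest (r = -0.22) and differed by -0.04 ± 0.06 (adjusted p = 0.563). Fitted singly, 40.1% of 45037 probe sets passed in this comparison. Which transcripts of Ikzf2 each probe set reads was not examined.

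Il2ra did not differ detectably between the groups. Its log2 signal in Responder tumours ran from 5.14 through a median of 5.50 to 6.08. In NonResponder tumours it ran from 5.31 through a median of 5.48 to 6.11. The groups overlapped throughout, and the highest value in each belonged to an array with high lymph node markers, Responder replicate 20 and NonResponder replicate 14.

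The Il2ra difference was 0.01 ± 0.05 between Responder and NonResponder tumours (log2, SE; limma adjusted p = 0.819), with a 95% interval of -0.08 to 0.11. It was -0.02 inside the larger and 0.08 inside the smaller series. Its other probe set, 1420692_at, correlated moderately with the brighter 1420691_at (r = 0.44) and differed by 0.05 ± 0.07 (adjusted p = 0.579). Against control IgG, Responder tumours differed by -0.07 ± 0.06 (adjusted p = 0.364). The mean Il2ra signal, log2 5.52, also lay under that of the median gene (log2 7.01). Whether its probe sets read the transcript at this level was not tested.

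Il10 was higher in Responder tumours, with wide spread. Its single probe set, 1450330_at, had a lowest log2 signal of 3.73, a median of 4.99 and a highest of 6.15 in Responder tumours. In NonResponder tumours the lowest, median and highest values were 3.88, 4.63 and 6.16. Both ends of the ranges overlapped, yet 22 of 27 Responder arrays exceeded the NonResponder median. The highest NonResponder value was again that of replicate 14.

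The Il10 difference was 0.42 ± 0.13 between Responder and NonResponder tumours (log2, SE; limma adjusted p = 0.0100), or 1.34-fold with a 95% interval of 1.11 to 1.61. Without the 3 arrays with high lymph node markers it was 0.51. Inside the smaller series it was 0.68 ± 0.22 (adjusted p = 0.0132), and 6 of 10 Responder arrays lay above every NonResponder array. Inside the larger series it was 0.26 ± 0.17 (adjusted p = 0.301), and 0 of 17 lay above every NonResponder array, or 6 of 17 without the array with high lymph node markers. The interaction contrast for Il10, larger minus smaller, was -0.42 ± 0.28 (adjusted p = 0.468).

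Macrophage and T cell markers moved in the same comparison as Il10 and Ikzf2. All 9 macrophage markers were higher in Responder than in NonResponder tumours, with a median difference of 0.89, and their mean log2 signal per array ran from 8.43 to 11.92 in Responder and from 8.31 to 11.86 in NonResponder tumours. Of 9 T cell markers, 8 were higher, with a median of 1.19, and their mean ran from 5.66 to 9.79 in Responder and from 5.38 to 9.74 in NonResponder tumours. Cd4, the coreceptor gene of the lineage to which regulatory T cells belong, was the T cell marker that did not pass (0.18 ± 0.09, adjusted p = 0.0927), while Cd8a, a coreceptor gene of cytotoxic T cells, was 1.19 ± 0.22 higher (adjusted p = 0.000151). Inside the smaller series Cd4 did pass, at 0.42 ± 0.14 (limma adjusted p = 0.0183). Inside the larger series it stood at 0.03 ± 0.11 (adjusted p = 0.894). Of the NK cell markers 3 of 4 were higher (Klrc1, Klrd1 and Nkg7) and of the B cell markers 1 of 5 (Cd22). Among the lymph node markers 1 of 4 was higher (Ltb, by 1.43) and 1 lower (Madcam1). Ltb thus moved in the direction of the T cell markers and is part of the average that flagged the 3 arrays. None of 5 skeletal muscle markers passed. Among the melanocyte markers 1 of 7, the pigment protein gene Pmel, was lower by 0.93 (SE 0.30, adjusted p = 0.0114). Over all genes, 17.2% were higher and 29.8% lower in this comparison. The B cell and melanocyte counts do not stand out from these shares. Inside the larger series 0 macrophage markers, 1 T cell and 1 NK cell marker were called higher, and 2.63% of all genes passed. The medians of these markers there were 0.63, 0.83 and 1.09. Inside the smaller series the counts were 8, 9 and 3, and 36.7% of all genes passed. The part of these other cells in the Ikzf2 and Il10 differences was not tested.

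**Figure D2:**
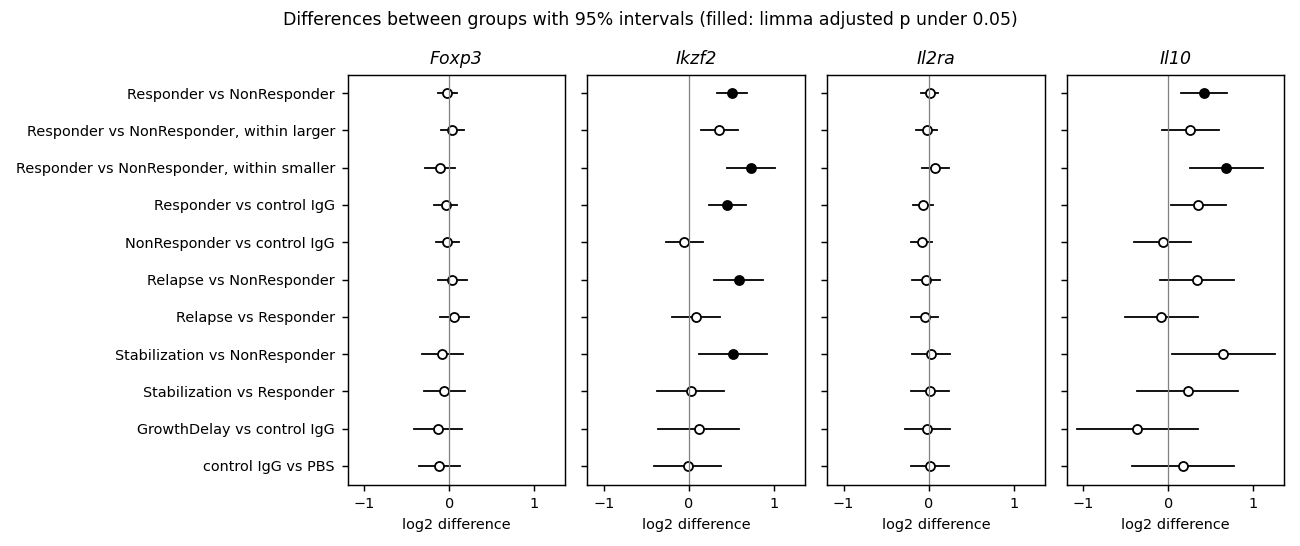
Log2 differences of the 4 genes with 95% intervals for 9 comparisons of groups, with Responder against NonResponder also inside the larger and the smaller title series. Filled points passed a limma adjusted p of 0.05. They stand for Ikzf2 in 5 lines and Il10 in 2, while the points of Foxp3 and Il2ra are all open.

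Against control IgG, Ikzf2 alone of the 4 genes was higher in Responder tumours. Control IgG tumours had a lowest Ikzf2 signal of 7.44, a median of 7.95 and a highest of 8.33, so that 14 of 27 Responder arrays lay above every control IgG array. That count pools the title series. Inside the larger series 13 of 17 Responder arrays lay above each of the 14 control IgG arrays there. The difference was 0.45 ± 0.11 (log2, SE; limma adjusted p = 0.00224), and 0.40 ± 0.11 inside the larger series (adjusted p = 0.00965), the series that held both groups. Il10 had a lowest value of 4.07, a median of 4.60 and a highest of 5.55 in control IgG tumours, and its difference of 0.35 ± 0.16 missed the threshold (adjusted p = 0.0770; 0.27 inside the larger series). With no series term (0.49) or after quantile normalization (0.41) it passed. Of all genes 37.3% passed, 14.5% higher and 22.8% lower, and 27.3% passed inside the larger series. Centring the arrays on their median moved the higher share of the called genes to 51.8%, against 38.9% as fitted, and leaving out dim genes (mean under log2 7.01) moved it to 64.2%. The Ikzf2 call remained under both.

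Between NonResponder and control IgG tumours none of the 4 genes passed. The 4 differences lay between -0.08 (Il2ra) and -0.02 (Foxp3), with Ikzf2 at -0.05 ± 0.11 and Il10 at -0.07 ± 0.17. No gene of the 18193 (0%) passed in limma, and 838 had an unadjusted p under 0.05. The 95% intervals ran from -0.28 to 0.17 for Ikzf2 and from -0.40 to 0.27 for Il10.

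Relapse tumours, which were growing again when taken, had higher Ikzf2 than NonResponder tumours. The lowest, median and highest log2 signals of Ikzf2 in the 6 Relapse tumours were 8.13, 8.49 and 8.72, and every one of them exceeded the NonResponder median. Against NonResponder tumours the difference was 0.59 ± 0.14 (limma adjusted p = 0.00897), with 0.38 inside the larger (adjusted p = 0.621) and 0.85 inside the smaller series (adjusted p = 0.0104). It did not pass in either series fitted alone (adjusted p = 0.525 and 0.0506). In this comparison 20.3% of all genes passed, 8.43% higher and 11.9% lower. Quantile normalization moved the higher share of the called genes to 24.6%, against 41.5% as fitted, and leaving out dim genes moved it to 79.4%. The Ikzf2 call held under both. The number of genes called, 3697 as fitted, was 7839 without the 6 arrays of low correlation, 2073 after quantile normalization, 1621 with no series term, 542 in the smaller series alone and 0 in the larger series alone.

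Il10 in the Relapse tumours had a lowest value of 4.38, a median of 5.03 and a highest of 5.88, and its difference from NonResponder tumours was 0.34 ± 0.22 (limma adjusted p = 0.223). Foxp3 differed by 0.04 ± 0.09 and Il2ra by -0.03 ± 0.08. Against Responder tumours, the 4 differences of Relapse tumours lay between -0.08 (Il10) and 0.08 (Ikzf2), and limma called 0 of 18193 genes (0%), with 803 at an unadjusted p under 0.05. The interval for Ikzf2, -0.20 to 0.37, bounds the difference in both directions.

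The 3 Stabilization tumours had Ikzf2 signals of 8.09, 8.78 and 8.43. Each exceeded the NonResponder median, and the difference of 0.52 ± 0.20 just passed (limma adjusted p = 0.0492). It did not pass without any one of these arrays, with values between 0.35 and 0.69 (adjusted p from 0.0750 to 0.458). Inside the smaller series, which held all 3, it was 0.66 ± 0.21 (adjusted p = 0.0123), or an adjusted p of 0.0590 with that series fitted alone. Il10 was 5.44, 6.23 and 5.07 in the same tumours and differed by 0.65 ± 0.30 (adjusted p = 0.102), or by 0.77 ± 0.32 inside the smaller series (adjusted p = 0.0517). In this comparison 22.4% of all genes passed, 10.5% higher and 11.9% lower. Against Responder tumours no member passed, Ikzf2 differing by 0.02 ± 0.20 and Il10 by 0.23 ± 0.30, and 0.319% of all genes did.

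Among the smaller and control groups no member passed either. The 2 GrowthDelay tumours had Foxp3 signals of 5.40 and 5.33, Ikzf2 signals of 7.99 and 7.96, Il2ra signals of 5.68 and 5.43 and Il10 signals of 4.53 and 4.00. Against control IgG, Il10 differed by -0.37 ± 0.36 and the other 3 genes by -0.13 to 0.11, and limma called 0 of 18193 genes (0%), with 969 at an unadjusted p under 0.05. Between control IgG and PBS tumours the member differences lay between -0.12 (Foxp3) and 0.17 (Il10). With the series as a term, these differences rest on the 14 control IgG and 3 PBS arrays of the larger series. In that comparison 0.0055% of all genes, a single gene, passed in limma, and 240 had an unadjusted p under 0.05.

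Ordered by mean log2 signal, Ikzf2 ran from Relapse (8.45) through Stabilization (8.43) and Responder (8.35) to GrowthDelay (7.97), control IgG (7.91), NonResponder (7.85) and PBS (7.76). The step between Responder and GrowthDelay, 0.38, exceeded the SD of both neighbours. No other step of Ikzf2 did, nor did any step between neighbours for Foxp3, Il2ra or Il10. Il10 was highest in Stabilization (5.58), then Responder (5.12) and Relapse (5.08), and lowest in GrowthDelay (4.27). These means pool the title series. Over all their arrays, the smaller series averaged 0.50 above the larger one for Il10 and 0.22 above it for Ikzf2. The places of Stabilization and GrowthDelay in the order cannot be told apart from the series. The means of Foxp3 spanned 5.37 (GrowthDelay, all in the larger title series) to 6.00 (Stabilization, all in the smaller one), and those of Il2ra spanned 5.49 (control IgG) to 5.61 (Stabilization).

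Taken relative to Cd3g on the same array, each of the 4 genes was lower in Responder than in NonResponder tumours. The log2 signal of Foxp3 minus that of Cd3g had a lowest value of -4.79, a median of -2.79 and a highest of 0.21 in Responder tumours, against -5.46, -0.48 and 1.25 in NonResponder tumours. The lowest NonResponder value was that of replicate 14, and 26 of 27 Responder arrays lay below the NonResponder median. The difference was -2.02 ± 0.35 (SE; limma adjusted p = 9.59e-08). For Il2ra it was -1.98 ± 0.33 (adjusted p = 5.57e-08), for Il10 -1.57 ± 0.30 (adjusted p = 7.69e-07) and for Ikzf2 -1.49 ± 0.32 (adjusted p = 7.26e-06).

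These relative differences carry little about the 4 genes themselves, because 99.9% of all genes were lower relative to Cd3g in the same test. Other T cell genes were among them, with Cd3e at -1.23, Cd247 at -1.15, Cd8a at -0.80 and Cd4 at -1.82. What the values show is that the members changed by another amount than Cd3g. With Cd4 in place of Cd3g, Ikzf2 was 0.33 higher (adjusted p = 0.00909) and Il10 stood at 0.24 (adjusted p = 0.133), so the sign turned for both. Foxp3 (-0.20, adjusted p = 0.110) and Il2ra (-0.16, adjusted p = 0.0931) no longer passed. For Ikzf2 and Il10 the direction of the ratio thus depended on the T cell gene chosen. Foxp3 and Il2ra stayed below 0 in this comparison with each of the 4 denominators run. That sign came from the denominators, whose genes differed by 0.18 (Cd4) to 2.00 (Cd3g) between Responder and NonResponder tumours. In signal, Foxp3 (-0.02) and Il2ra (0.01) hardly differed, so the sign is no evidence of a fall in either gene.

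**Figure D3:**
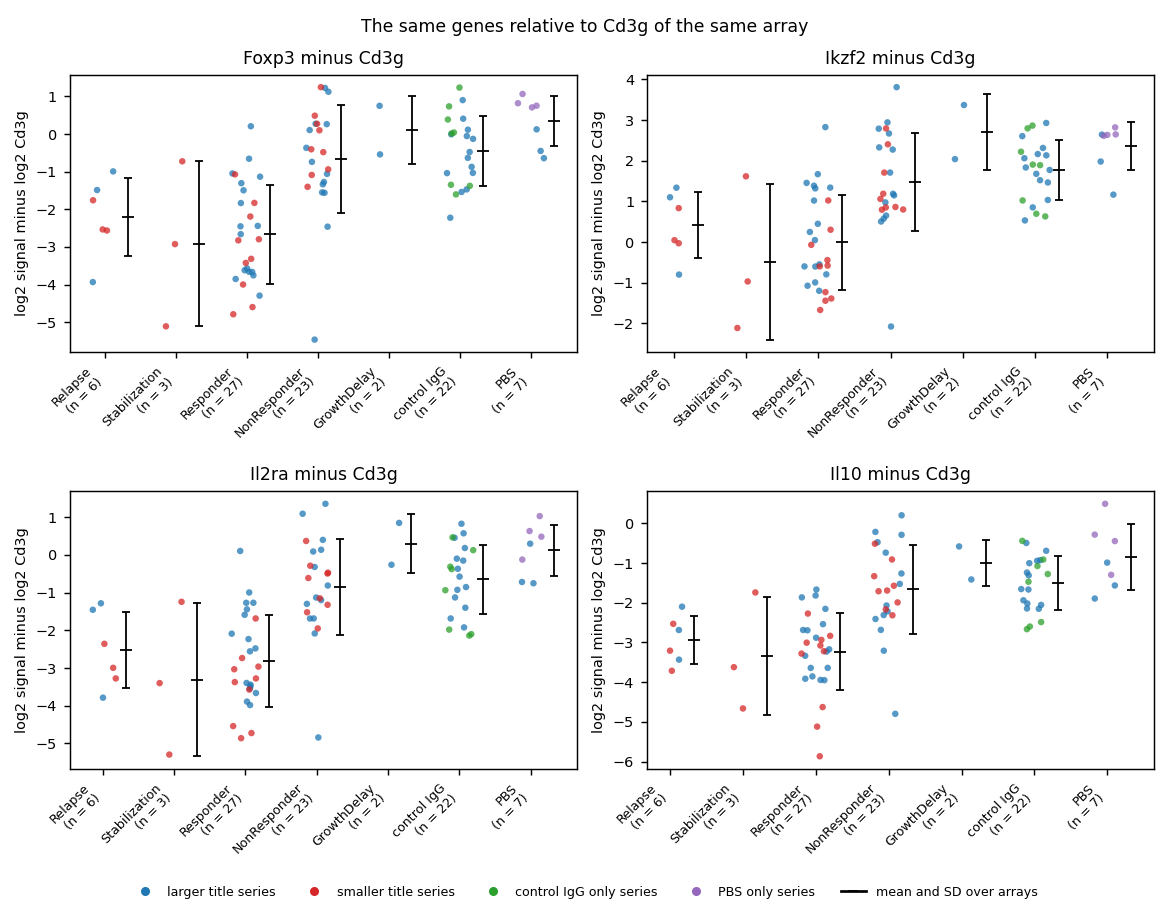
Log2 signal of each of the 4 genes minus that of Cd3g on the same array, by group, with points coloured by title series and the mean and SD over arrays in black. Relapse, Stabilization and Responder tumours sit lower than the other groups for all 4 genes, with NonResponder replicate 14 as the lowest NonResponder point, at -5.46 for Foxp3.

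The same pattern held against control IgG. Relative to Cd3g, Responder tumours differed by -2.07 ± 0.43 for Foxp3, -1.58 ± 0.39 for Ikzf2, -2.10 ± 0.40 for Il2ra and -1.68 ± 0.37 for Il10 (limma adjusted p from 4.12e-06 to 8.30e-05), while 99.9% of all genes were lower. Inside the larger series these values were -1.85, -1.43, -1.92 and -1.55. NonResponder tumours differed from control IgG tumours by -0.06 to -0.12, and 0 of 18192 genes (0%) passed in limma, with 49 at an unadjusted p under 0.05.

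Relapse tumours differed from NonResponder tumours, relative to Cd3g, by -1.55 ± 0.57 for Foxp3 (limma adjusted p = 0.0113), -1.62 ± 0.54 for Il2ra (adjusted p = 0.00805) and -1.25 ± 0.49 for Il10 (adjusted p = 0.0158). Ikzf2, at -1.002 ± 0.52, missed the threshold (adjusted p = 0.0578). Of all genes 92.9% were lower in this test. Against Responder tumours the Relapse values were 0.32 to 0.49 higher without passing, and 0 of 18192 genes (0%) passed in limma, with 3 at an unadjusted p under 0.05.

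Whether the 4 genes followed Cd3g from tumour to tumour was examined inside the 3 largest groups, after subtracting the mean of each title series. Ikzf2 followed Cd3g in Responder tumours (Pearson r = 0.58, Spearman rho = 0.59, n = 27; two-sided permutation p = 0.000830 and 0.00152, adjusted over 12 relations to 0.00249 and 0.00456). In NonResponder tumours its r was 0.58 and rho 0.42 (n = 23; permutation p = 0.00738 and 0.0469, adjusted 0.0111 and 0.0722), and in control IgG tumours r was 0.73 and rho 0.72 (n = 22; permutation p = 4.00e-05 and 0.0001, adjusted 0.000420 and 0.000760). Without the 2 arrays farthest from the Cd3g median, r was 0.60 in Responder, 0.42 in NonResponder and 0.72 in control IgG tumours. By r the NonResponder relation no longer passed then (adjusted permutation p = 0.102) and rests on those arrays, of which replicate 14 is one. Its rho stayed at 0.42 and passed in neither case (adjusted permutation p = 0.0992 without them). Without the array of high lymph node markers r was 0.31. Inside the larger and the smaller series r was 0.53 and 0.73 in Responder and 0.70 and 0.25 in NonResponder tumours, and inside the larger and the control IgG series it was 0.77 and 0.71 in control IgG tumours. Without the array of high lymph node markers, 0.73 became 0.55 in Responder and 0.70 became 0.36 in NonResponder tumours (added after seeing the data).

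Il10 followed Cd3g in Responder tumours as well (r = 0.68, rho = 0.69, n = 27; permutation p = 0.000160 and 0.000190, adjusted 0.000640 and 0.000760). Inside the larger series r was 0.91 over 17 arrays, and inside the smaller series it was 0.09 over 10 arrays, where Responder replicate 20, with high lymph node markers, is among the 10. Without that array r was 0.34 inside the smaller series (added after seeing the data) and 0.78 over both series (rho = 0.79, n = 26; adjusted permutation p = 0.000240 for each). In control IgG tumours r was 0.71 and rho 0.71 (n = 22; permutation p = 7.00e-05 and 0.000180, adjusted 0.000420 and 0.000760), with 0.77 and 0.81 inside the series. In NonResponder tumours r was 0.71 and rho 0.45 (n = 23; permutation p = 0.00163 and 0.0265, adjusted 0.00391 and 0.0530), with 0.77 and 0.63 inside the larger and the smaller series. Without replicate 14, r was 0.28 inside the larger series (added after seeing the data) and 0.38 over both series (adjusted permutation p = 0.0945). Without the 2 arrays farthest from the Cd3g median, r was 0.57 in Responder, 0.28 in NonResponder and 0.64 in control IgG tumours. By r the NonResponder relation no longer passed then (adjusted permutation p = 0.239) and rests on those arrays. Its rho, 0.32 without them, passed in neither case.

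Foxp3 showed no detectable relation with Cd3g in any of the 3 groups. Its r was -0.26 and rho -0.25 in Responder tumours (permutation p = 0.1998 and 0.212, adjusted 0.266 and 0.255), 0.06 and 0.14 in NonResponder tumours (permutation p = 0.793 and 0.514, adjusted 0.793 and 0.514) and -0.23 and -0.18 in control IgG tumours (permutation p = 0.322 and 0.436, adjusted 0.386 and 0.476). Inside the series r lay between -0.56 and 0.18. Without the 2 farthest arrays it was -0.22, -0.0049 and -0.18 in the 3 groups. The low signal of the Foxp3 probe set (mean log2 5.71) limits what a missing relation shows about the transcript.

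Il2ra followed Cd3g in Responder tumours (r = 0.53, rho = 0.57, n = 27; permutation p = 0.00360 and 0.00207, adjusted 0.00720 and 0.00497), with 0.54 and 0.55 inside the larger and the smaller series and 0.58 without the 2 farthest arrays. In NonResponder tumours r was 0.69 and rho 0.42 (n = 23; permutation p = 0.00421 and 0.0481, adjusted 0.00722 and 0.0722), with 0.79 and 0.32 inside the series. It was 0.50 without the 2 farthest arrays and 0.33 without the array with high lymph node markers (adjusted permutation p = 0.173). Inside the larger series r was 0.37 without that array, against 0.79 with it. In Responder tumours, leaving out replicate 20 gave 0.26 inside the smaller series and 0.46 over both series (adjusted permutation p = 0.0453). The values inside a series without these arrays were added after seeing the data. In control IgG tumours r was -0.21 and rho -0.32 (n = 22; permutation p = 0.361 and 0.160, adjusted 0.394 and 0.214), with -0.11 and -0.35 inside the series and -0.28 without the 2 farthest arrays.

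**Figure D4:**
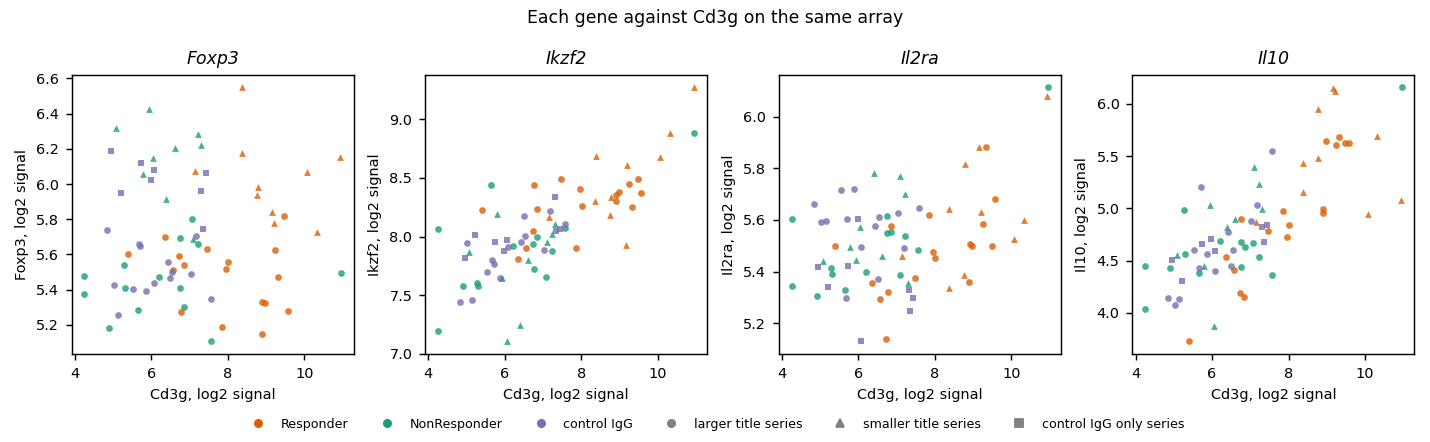
Log2 signal of each of the 4 genes against that of Cd3g on the same array, for Responder, NonResponder and control IgG tumours, with marker shapes for the title series. Ikzf2 and Il10 rise with Cd3g, Foxp3 does not, and the rightmost NonResponder point is replicate 14, with Cd3g at 10.95.

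Over all 90 arrays, after subtracting the mean of each group and title series, the 4 genes were not strongly alike. As a description with no test, Pearson r of Foxp3 was 0.01 with Ikzf2, -0.11 with Il2ra and -0.20 with Il10. The r of Il10 was 0.42 with Il2ra and 0.27 with Ikzf2, and that of Il2ra with Ikzf2 was 0.18. Without the 3 arrays with high lymph node markers these were 0.38, 0.21 and -0.07. All arrays share their processing, and these values come from the same 90 arrays as the next.

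The genes most like each member by the same measure differed between members. For Il10 they were Cd200r4 (r = 0.84), Sirpb1a, Fcgr1, Ms4a6c and Lst1 (r = 0.81), of which Fcgr1, a high-affinity receptor for antibody, was also on the macrophage marker list. For Ikzf2 they were Fam102a (r = 0.80), Slc9a3r1, Arel1, Cdk19 and Ppp1r13b (r = 0.74). For Foxp3 they were Rpl27a, which encodes a ribosomal protein (r = 0.55), Mettl3, Man2c1os, Pi4kb and Pus7l (r = 0.45). For Il2ra they were Clec1b (r = 0.62), Haao, Zdhhc2, Snx20 and Endou (r = 0.60), and none of these 5 remained among the 5 most alike without the 3 arrays of high lymph node markers, where Zbtb32 came first (r = 0.50). Cd200r4 with Il10 (r = 0.82), Fam102a with Ikzf2 (r = 0.75) and Rpl27a with Foxp3 (r = 0.55) kept first place without those arrays.

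Other genes known from regulatory T cells moved in both directions. Of 16 measured surface and effector genes, 8 were higher and 2 lower in Responder than in NonResponder tumours, with a median difference of 0.25, against 17.2% higher, 29.8% lower and a median of -0.06 over all genes. The inhibitory receptor gene Ctla4 was 0.68 ± 0.13 higher (limma adjusted p = 0.000213), Entpd1, which encodes the ATP-cleaving enzyme CD39, was 0.96 ± 0.20 higher (adjusted p = 0.000341), and Ebi3, a subunit of the cytokines IL-27 and IL-35, was 0.90 ± 0.20 higher (adjusted p = 0.000599). The chemokine receptor gene Ccr4 was lower, by -0.21 ± 0.04 (adjusted p = 0.000321), as was Nt5e, which encodes CD73 (-0.14 ± 0.05, adjusted p = 0.0302). Several of these genes are also active in other cells, Ctla4 in activated T cells and Entpd1 in macrophages, and the macrophage and T cell marker values given above apply here too. The part of those cells was not tested.

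Among 16 transcription regulators, 7 were higher and 1 was lower, with a median of 0.24, against 17.2% higher and 29.8% lower over all genes. Ikzf1, the founding member of the Ikaros family to which Ikzf2 belongs, was 1.40 ± 0.28 higher (limma adjusted p = 0.000210), Prdm1, which encodes Blimp-1, was 1.01 ± 0.22 higher (adjusted p = 0.000495), Runx1 was 0.71 ± 0.15 higher (adjusted p = 0.000613) and Maf was 0.92 ± 0.24 higher (adjusted p = 0.00240). Batf, an AP-1 family factor, was lower, by -0.20 ± 0.08 (adjusted p = 0.0358). The other Ikaros family members, Ikzf4 (0.00 ± 0.06, adjusted p = 0.960) and Ikzf3 (0.03 ± 0.06, adjusted p = 0.725), did not pass.

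The IL-2 axis was higher in 6 of 8 measured genes and lower in 0, with a median of 0.28, against the same 17.2% and 29.8% over all genes. The signalling chain of the receptor, Il2rb, was 1.36 ± 0.24 higher (limma adjusted p = 9.20e-05), unlike Il2ra, and it is shared with the IL-15 receptor and used by T and NK cells. The kinase genes Jak1 (0.55 ± 0.14, adjusted p = 0.00169) and Jak3 (0.48 ± 0.14, adjusted p = 0.00471) and the transcription factor gene Stat5a (0.33 ± 0.08, adjusted p = 0.00191) were also higher. The cytokine gene Il2 stood at -0.12 ± 0.06 and did not pass (adjusted p = 0.0699).

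The IL-10 axis was higher in 7 of 9 genes and lower in 0, with a median of 0.47, against 17.2% higher and 29.8% lower over all genes. The macrophage markers were higher in 9 of 9, with a median of 0.89, and their part in this count was not tested. The list also holds Il4ra, Il12a and Il12b, which are not genes of the IL-10 receptor. Il4ra (0.67 ± 0.17, limma adjusted p = 0.00255) and Il12b (0.29 ± 0.09, adjusted p = 0.00645) are among the 7. Il12a (-0.08 ± 0.07, adjusted p = 0.329) is not. The count is therefore not one of IL-10 receptor signalling alone. The ligand-binding receptor chain Il10ra was 1.12 ± 0.21 higher (limma adjusted p = 0.000163), while the other chain, Il10rb, stood at 0.08 ± 0.06 (adjusted p = 0.256). Tyk2, a kinase of the receptor, was 0.40 ± 0.08 higher (adjusted p = 0.000338), Socs3, a feedback inhibitor of cytokine signalling, was 0.73 ± 0.16 higher (adjusted p = 0.000633), and Bcl3, a regulator of NF-kappaB, was 0.49 ± 0.12 higher (adjusted p = 0.00151). The counts of the surface and effector, regulator, IL-2 and IL-10 lists pool the title series. Inside the larger series each of these lists had 0 genes higher, and 1 surface and effector gene was lower (2.63% of all genes passed). Inside the smaller series 9, 9, 6 and 7 genes were higher and 1, 0, 0 and 0 lower, in that order (36.7% of all genes passed).

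**Figure D5:**
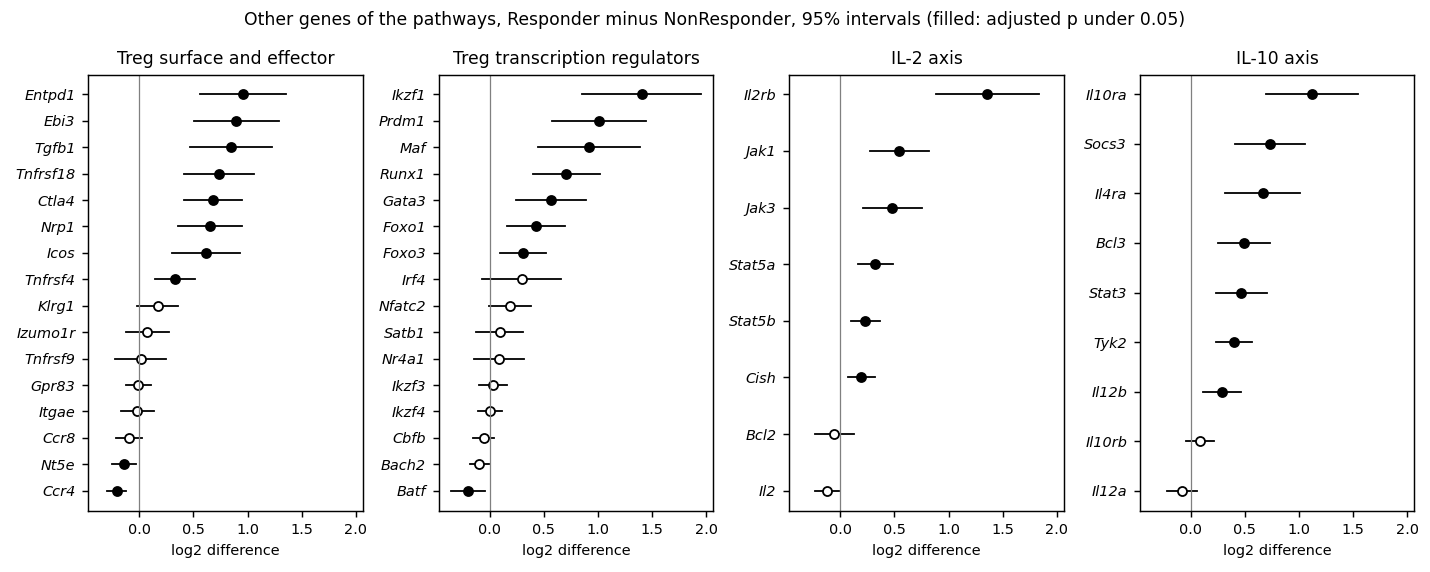
Log2 differences between Responder and NonResponder tumours with 95% intervals for the other genes of 4 lists, with filled points for a limma adjusted p under 0.05. Il2rb, Il10ra, Ikzf1 and Entpd1 stand furthest to the right of their lists, at 1.36, 1.12, 1.40 and 0.96.

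Against control IgG, Responder tumours gave similar counts: 8 surface and effector genes higher and 3 lower (Ccr4, Nt5e and Tnfrsf9), 6 transcription regulators higher and 0 lower, 5 IL-2 axis genes higher and 0 lower, and 5 IL-10 axis genes higher and 0 lower. The medians were 0.25, 0.25, 0.26 and 0.39, against -0.06 over all genes, of which 14.5% were higher and 22.8% lower. Ctla4 was 0.56 ± 0.16 higher in limma (adjusted p = 0.00839), Il2rb 1.44 ± 0.29 (adjusted p = 0.000504) and Il10ra 0.94 ± 0.26 (adjusted p = 0.00611). In Relapse against NonResponder tumours the counts were 1 higher and 1 lower, 2 higher and 1 lower, 3 higher and 0 lower, and 5 higher and 0 lower, in the same order of lists, with medians of 0.15, 0.30, 0.38 and 0.48, against -0.06 over all genes, of which 8.43% were higher and 11.9% lower. They were Tgfb1 higher and Ccr4 lower, Ikzf1 and Runx1 higher and Bach2 lower, Il2rb, Jak1 and Stat5a higher, and Il10ra, Tyk2, Stat3, Socs3 and Il12b higher. Ctla4 stood at 0.40 ± 0.22 there (adjusted p = 0.153), while Il2rb was 1.08 ± 0.39 higher (adjusted p = 0.0422) and Il10ra 0.98 ± 0.35 higher (adjusted p = 0.0400). These comparisons share the Responder and NonResponder arrays with the one above. Between NonResponder and control IgG tumours 0 genes of these lists passed.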

How the data were processed

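The deposited values are log2 signals of 45101 Affymetrix probe sets on 90 arrays; per the submitters' processing notes the authors used RMA and limma, with versions not given in the sources used here. Here, 64 control probe sets, 932 with several gene symbols and 9160 not listed in the platform annotation were left out, and each of 18193 genes was represented by its brightest probe set on average (9010 genes had several). No symbol needed updating. Positions in the genome are not given here.

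Group and title series were fixed terms of a linear model fitted to all 90 arrays for each gene, using lmFit and eBayes of limma 3.58.1 (R 4.3.3). P-values are two-sided and Benjamini-Hochberg adjusted over all genes, with a threshold of 0.05. Comparisons that cross series borrow the shared series term, and values inside a series come from a model in which every combination of group and series has its own mean. For relative values Cd3g was subtracted on each array before the fit. Relations with Cd3g used 100000 permutations within title series (Python 3.11.15, numpy 2.4.6), all orders under 10 arrays. The fits were tested on simulated data. Lists held 104 genes, 96 of them measured.

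The 4 members and the lists were chosen with earlier results of these data known. Named are the members and their probe sets, Cd3g, up to 4 genes of each list with the smallest p in Responder against NonResponder, genes that define a list and the 5 genes most like each member. Cd4, Pmel, Nt5e, Batf, Ikzf3, Ikzf4, Il2, Il10rb, Il4ra, Il12a, Il12b and the genes that spell out counts of 5 or fewer were picked or kept after their values were seen. Alternatives were another choice of probe sets, no series term, median centring, quantile normalization, a filter on dim genes, a trended robust prior, arrays left out, single series and other denominators.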

Additional observations from a re-analysis of the deposited data

How the results depend on the processing

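Ikzf2 kept its call in Responder against NonResponder tumours under 11 of 11 alternatives (log2 difference 0.31 to 0.73) and against control IgG under 10 of 10 (0.33 to 0.48). The 11 do not count its dimmest probe set, 1421643_at, which gave -0.04 (limma adjusted p = 0.563). Nor do they count the larger series inside the joint model, where Ikzf2 missed the threshold (0.36, limma adjusted p = 0.0548). Il10 kept its call against NonResponder tumours under 9 of 10 (0.26 to 0.68), the exception being the larger series fitted alone (0.26, adjusted p = 0.313). Foxp3 and Il2ra passed under 0 of 10. Over all comparisons of the members, 579 of 663 log2 differences kept direction and side of the threshold, 44 that passed in neither setting changed sign, 25 lost their call, 9 gained one and 6 with a call changed sign. The causes were not tested, except that leaving out dim genes (mean under log2 7.01) leaves Ikzf2 as the single member tested.

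Counts of members called moved as follows. With dim genes left out, 1 member passed in Responder against NonResponder tumours, in the F test, and relative to Cd3g in Responder against NonResponder and against control IgG, and 0 passed relative to Cd3g in Relapse against NonResponder tumours. With the larger series alone, 1 passed in Responder against NonResponder tumours, and 0 passed in Relapse against NonResponder tumours, both in signal and relative to Cd3g. In the smaller series alone 0 passed in Relapse and 0 in Stabilization against NonResponder tumours. Responder against control IgG gave 2 with no title series term and 2 with quantile normalization. Stabilization against NonResponder gave 2 with no series term and 0 with the mean of all probe sets, probe sets fitted singly, median centring, quantile normalization or a trended robust prior. Leaving out 1 Stabilization array at a time gave 0 to 1 calls, and the 1 call, without replicate 3, was Il10 (0.90) and not Ikzf2.

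With Cd4 in place of Cd3g, 1 member passed in Responder against NonResponder tumours: Ikzf2 turned to 0.33 and Il10 to 0.24, while Foxp3 (-0.20) and Il2ra (-0.16) lost their calls. Against control IgG 0 passed, and Ikzf2 turned to 0.28 and Il10 to 0.19. In Relapse against NonResponder tumours 0 passed with Cd4, where Foxp3 turned to 0.030 and Il10 to 0.33, 0 with Cd8a, and 1 with the mean of Cd3g, Cd3e and Cd3d. Of 12 relations with Cd3g, 8 passed by Pearson r and 5 by Spearman rho. Without the arrays of high lymph node markers 5 did by either. With Cd4 in place of Cd3g 2 did by r, Ikzf2 in Responder (0.75) and Il2ra in NonResponder tumours (0.79), and 1 by rho. With Cd4, r of Il10 was 0.04 in Responder tumours, against 0.68 with Cd3g, and it turned to -0.26 in control IgG tumours. For Ikzf2 in control IgG tumours r was 0.08 with Cd4, against 0.73 with Cd3g.

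With dim genes left out, 54.4% of the called genes were higher in Responder than in NonResponder tumours, against 36.7% with all genes. The number called, 8552 with all genes, was 4397 of 9096 then, 3467 in the smaller and 550 in the larger series alone. With dim genes left out it was 3448 of 9096 in Responder against control IgG (6791 with all) and 1559 in Relapse against NonResponder tumours. No paired analysis was possible because the labels give no replicate numbers, and those used here pair nothing. Fits in a single series were not run where it holds only one of the groups. The larger series could not be used for Stabilization, nor the smaller series for GrowthDelay, control IgG or PBS. Arrays give no read depth. Foxp3, Il2ra and Il10 lie below the median gene in mean signal, and GrowthDelay and Stabilization hold 2 and 3 arrays. The fitted difference between control IgG and PBS rests on 3 PBS arrays.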
